A study of Mus musculus with 2 samples.

Results

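The vascular growth factor genes described here are 10: the ligands Vegfa, Vegfc, Angpt1, Angpt2 and Pdgfb, and the receptors Flt1, Kdr, Tek, Tie1 and Pdgfrb. They were chosen by symbol, and each matched 1 row of the gene list, so 10 of 31053 genes are members. Their transcripts were counted as UMIs, molecular tags that count each captured transcript once, in single cells of mouse hippocampus. One library came from Mr1-/- mice and 1 from Mr1+/+ mice, both 7 months old and untreated. Mr1 encodes the MHC class I-related molecule that presents small metabolites to mucosal-associated invariant T cells. Cells were freed with a neuron isolation kit, and live nucleated cells were sorted as negative for DAPI and positive for Draq5, with no gate for a cell type. The sources used here do not give how many animals were pooled. With 1 library per genotype no difference has a replicate check, no p-value is given, and every interval covers counting error only.

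VEGF, angiopoietin and PDGF ligands act across the vessel wall. Vegfa from cells around the vessel signals through the endothelial receptor Kdr, while Flt1 binds Vegfa tightly and limits what reaches Kdr, and Vegfc is best known as the ligand of Flt4. Angpt1 activates the endothelial receptor Tek and keeps vessels quiet, Angpt2 can oppose it, and Tie1 is the related receptor that modifies Tek signalling. Pdgfb released by endothelium binds Pdgfrb on pericytes and smooth muscle cells and keeps them on the vessel.

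The promoters of Flt1, Kdr and Tek, whose transcripts lay mostly in endothelial-like cells, and of Vegfa, whose transcripts lay mostly in astrocyte-like cells, are shown so that the DNA can be read beside the levels. Each run is the stretch upstream of the annotated start on the gene's strand, 5′ to 3′, from RefSeq tables of build GRCm38.p6; capitals mark GGAAG, a form of the core bound by ETS factors, or its reverse complement CTTCC, so both strands were searched. Flt1 (chr5:147726012-147726261, minus strand) held 3 matches, Kdr (chr5:75978459-75978705, minus strand) held 1, Tek (chr4:94739039-94739288, plus strand) held 0 and Vegfa (chr17:46032378-46032627, minus strand) held 1.
Flt1: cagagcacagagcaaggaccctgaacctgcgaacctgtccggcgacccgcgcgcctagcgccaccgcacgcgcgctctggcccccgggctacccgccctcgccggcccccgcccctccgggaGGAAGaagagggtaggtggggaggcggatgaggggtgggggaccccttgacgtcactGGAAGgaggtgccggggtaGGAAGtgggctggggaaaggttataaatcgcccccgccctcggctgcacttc
Kdr: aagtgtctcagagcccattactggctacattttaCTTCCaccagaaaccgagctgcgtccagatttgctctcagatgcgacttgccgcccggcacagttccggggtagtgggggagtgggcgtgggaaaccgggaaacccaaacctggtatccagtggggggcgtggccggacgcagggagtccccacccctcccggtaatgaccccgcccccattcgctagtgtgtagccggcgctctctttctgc
Tek: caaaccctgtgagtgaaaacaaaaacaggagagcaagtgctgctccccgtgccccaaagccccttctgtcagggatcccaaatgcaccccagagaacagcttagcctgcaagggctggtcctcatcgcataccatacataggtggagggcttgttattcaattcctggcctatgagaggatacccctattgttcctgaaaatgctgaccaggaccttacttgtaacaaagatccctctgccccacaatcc
Vegfa: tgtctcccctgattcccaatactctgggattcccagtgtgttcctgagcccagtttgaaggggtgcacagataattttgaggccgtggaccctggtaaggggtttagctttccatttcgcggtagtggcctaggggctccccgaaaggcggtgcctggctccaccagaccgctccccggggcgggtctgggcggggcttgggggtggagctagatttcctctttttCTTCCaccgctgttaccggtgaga
A match is a description only: 64.1% of 32851 mouse promoters hold this motif in a window of 250 bases. The core of the hypoxia response element, ACGTG (reverse complement CACGT), had 0 matches in these 4 windows, and 16.6% of the promoters hold it. DNA outside these windows was not searched, so a site further away would be missed.

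On mm10 with the GENCODE annotation, Vegfa lies at chr17:46016993-46032369, Vegfc at chr8:54077606-54187096, Flt1 at chr5:147561604-147726011, Kdr at chr5:75932827-75978458, Tek at chr4:94739289-94874976 and Tie1 at chr4:118471191-118490061. Angpt1 lies at chr15:42424723-42676977, Pdgfb at chr15:79995874-80014977, Angpt2 at chr8:18690263-18741562 and Pdgfrb at chr18:61045150-61085061. Angpt2 overlaps Mcph1 on the opposite strand, and Angpt1 and Pdgfb have antisense partners, Gm17473 and Gm41361. The sources used here do not say whether counting used strand, so reads of these overlaps may be assigned uncertainly.

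Deposited barcodes numbered 5347 (18349132 UMIs) for Mr1-/- and 6410 (23244575 UMIs) for Mr1+/+. After filters, 5107 Mr1-/- and 5992 Mr1+/+ cells were kept, and 44 barcode sequences occurred in both libraries. Mr1 itself was counted 2 times in Mr1-/- and 130 times in Mr1+/+ cells, in the direction the labels give. Cells fell into 24 clusters, computed without the members and 12 related genes, and 10 classes were named from markers. The 5 classes with at least 200 cells per library were endothelial-like (1435 cells in Mr1-/- and 1302 cells in Mr1+/+), mural-like (971 in Mr1-/- and 965 in Mr1+/+), astrocyte-like (477 in Mr1-/- and 956 in Mr1+/+), microglia-like (744 in Mr1-/- and 639 in Mr1+/+) and oligodendrocyte-like (948 in Mr1-/- and 1350 in Mr1+/+). The endothelial markers summed to 35900 CPM (UMIs of the gene over all UMIs of the same cells, times 1000000) in the Mr1-/- endothelial-like class and 35490 CPM in the Mr1+/+ class, with none of the 10 markers at 0. Mural markers summed to 50526 CPM in Mr1-/- and 53829 CPM in Mr1+/+ mural-like cells. Mural markers in endothelial-like cells came to 47.7 CPM in Mr1-/- and 77.7 CPM in Mr1+/+, and endothelial markers in mural-like cells to 175 CPM in Mr1-/- and 177 CPM in Mr1+/+. Shares of the classes differed: endothelial-like cells were 28.1% of Mr1-/- and 21.7% of Mr1+/+ cells, and astrocyte-like cells were 9.34% of Mr1-/- and 16.0% of Mr1+/+ cells. Fewer recovered cells of a class and fewer cells of it in the tissue cannot be told apart.

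Among the classes plotted, the levels give the main pattern that the rest of the text describes: a ligand in astrocyte-like cells, 4 receptors and 2 ligands in endothelial-like cells, and Pdgfrb and Angpt2 in mural-like cells, with Angpt1 spread over several classes. Fibroblast-like cells are not plotted.

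**Figure D1:**
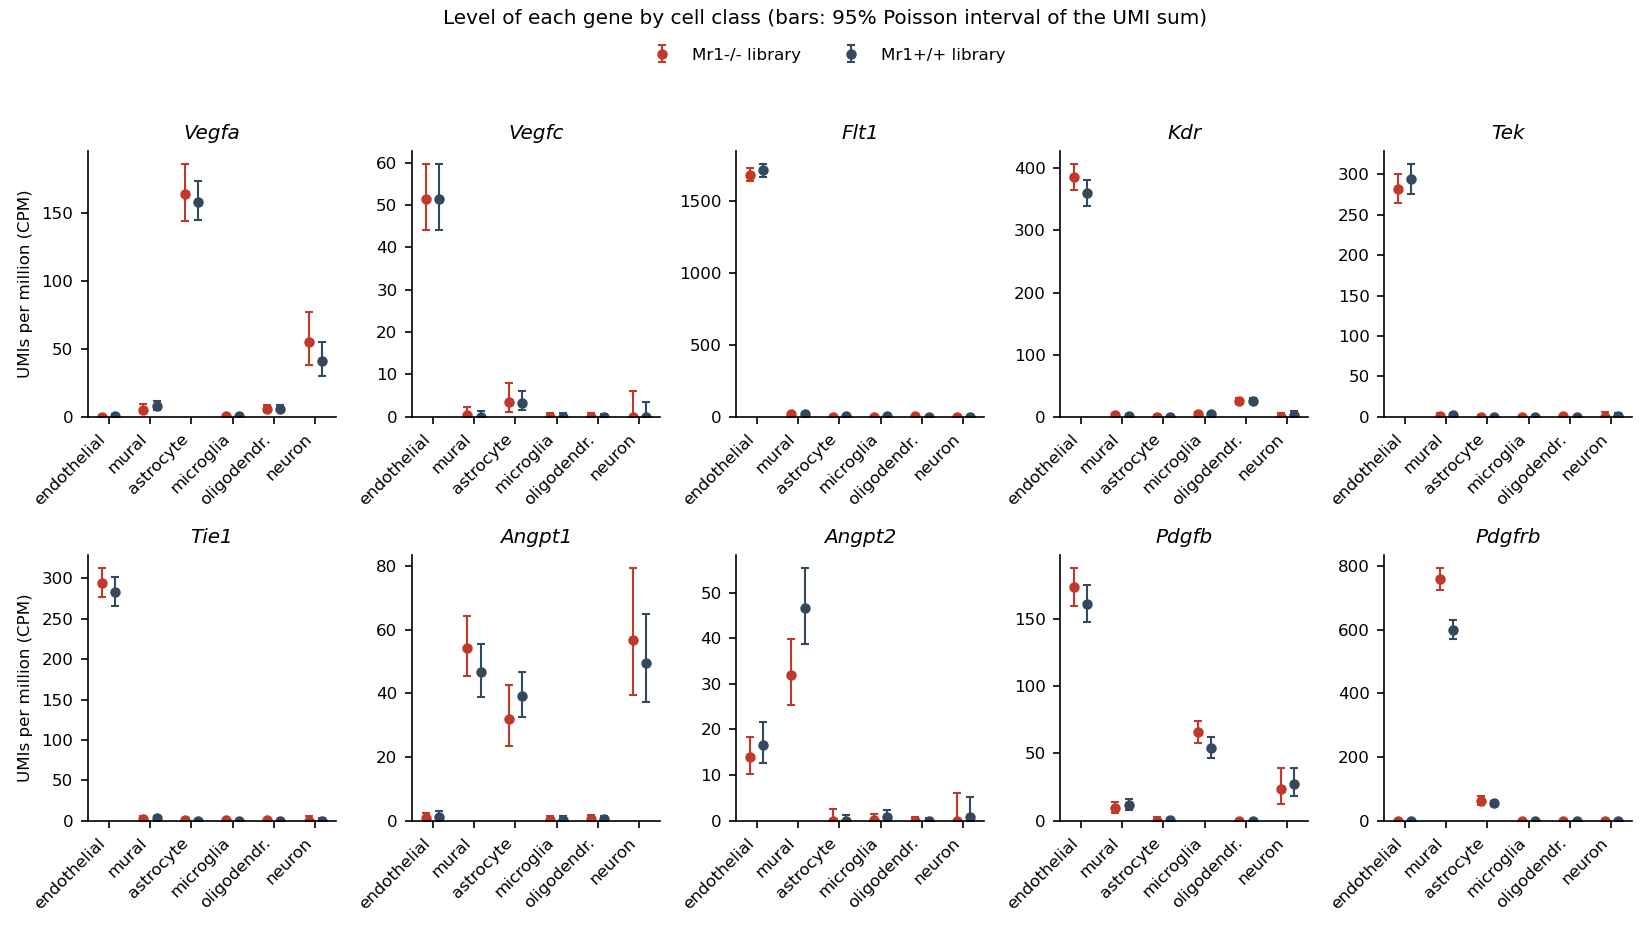
Level of each gene in CPM (linear axes that differ between panels) in 6 cell classes, with the Mr1-/- library in red at the left of the Mr1+/+ library in dark blue and bars for the 95% Poisson interval of the UMI sum. Flt1 stood at 1687 CPM in Mr1-/- and 1717 CPM in Mr1+/+ endothelial-like cells, Vegfa at 165 CPM in Mr1-/- and 159 CPM in Mr1+/+ astrocyte-like cells, and Pdgfrb at 759 CPM in Mr1-/- and 599 CPM in Mr1+/+ mural-like cells.

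Vegfa, the main ligand that drives vessel growth and permeability, lay mainly in astrocyte-like cells. They held 73.7% of its UMIs in Mr1-/- and 77.8% in Mr1+/+. Its level there was 165 CPM (241 UMIs) in Mr1-/- and 159 CPM (483 UMIs) in Mr1+/+ cells, a ratio of 1.04 (95% interval 0.884 to 1.21). The libraries thus did not differ beyond counting error in this class. A Vegfa UMI was seen in 35.8% of Mr1-/- and 33.7% of Mr1+/+ astrocyte-like cells (median depths 2994 UMIs in Mr1-/- and 3120.5 UMIs in Mr1+/+), against 0.134% of the Mr1-/- and 0.156% of the Mr1+/+ cells in the microglia-like class (median depths 3824.5 UMIs in Mr1-/- and 4306 UMIs in Mr1+/+), the class taken as free of it. After each cell was thinned to 1500 UMIs, the astrocyte-like shares were 22.3% in Mr1-/- and 20.9% in Mr1+/+ cells.

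Lower Vegfa levels stood in neuron-like cells, at 55.2 CPM (33 UMIs) in Mr1-/- and 41.2 CPM (44 UMIs) in Mr1+/+ cells. Most of these neuron-like cells belong to a cluster led by Reln. Fibroblast-like cells had 7 Vegfa UMIs in each library, and oligodendrocyte precursor-like cells had 4 in Mr1-/- and 16 in Mr1+/+; the intervals of these 3 classes overlap one another. Oligodendrocyte-like cells had 5.75 CPM in Mr1-/- and 6.14 CPM in Mr1+/+ (24 UMIs in Mr1-/- and 38 UMIs in Mr1+/+). The receptor-bearing endothelial-like cells had 0 Vegfa UMIs in 1435 Mr1-/- cells and 2 in 1302 Mr1+/+ cells. A count of 0 there allows up to 0.868 CPM.

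Vegfc lay mainly in endothelial-like cells, at 51.5 CPM in each library (178 UMIs in Mr1-/-, 173 in Mr1+/+; ratio 1.0, 95% interval 0.807 to 1.24). That class held 92.7% of its UMIs in Mr1-/- and 90.1% in Mr1+/+ cells. Fibroblast-like cells had 16.9 CPM (95% interval 2.05 to 61.1) in Mr1-/- and 18.1 CPM (2.19 to 65.3) in Mr1+/+, and these wide intervals overlap the endothelial ones. Astrocyte-like cells held 5 Vegfc UMIs in Mr1-/- and 10 in Mr1+/+. Oligodendrocyte-like, microglia-like and neuron-like cells held 0 Vegfc UMIs in each library, which allows up to 0.719 CPM in Mr1-/- and 0.485 CPM in Mr1+/+ oligodendrocyte-like cells. Few endothelial-like cells carried a Vegfc UMI, 7.60% in Mr1-/- and 8.76% in Mr1+/+, and these were mainly arterial.

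Flt1, which binds Vegfa and acts largely as a trap for it, was detected in 94.8% of Mr1-/- and 94.5% of Mr1+/+ endothelial-like cells (88.7% in Mr1-/- and 88.0% in Mr1+/+ when thinned). The median depths of the endothelial-like cells were 2335 UMIs in Mr1-/- and 2536.5 UMIs in Mr1+/+. Its level was 1687 CPM (5832 UMIs) in Mr1-/- and 1717 CPM (5770 UMIs) in Mr1+/+ cells, a ratio of 0.982 (95% interval 0.947 to 1.02). In oligodendrocyte-like cells (median depths 4192.5 UMIs in Mr1-/- and 4458 UMIs in Mr1+/+), the class taken as free of it, 1.37% of Mr1-/- and 0.667% of Mr1+/+ cells had a Flt1 UMI. Of the 26 Flt1 UMIs in Mr1-/- oligodendrocyte-like cells, 18 came from 5 cells.

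Kdr, the receptor that carries most of the signal of Vegfa, had 386 CPM (1334 UMIs) in Mr1-/- and 360 CPM (1209 UMIs) in Mr1+/+ endothelial-like cells, a ratio of 1.07 (95% interval 0.991 to 1.16). It was detected in 54.6% of Mr1-/- and 52.1% of Mr1+/+ cells (39.2% in Mr1-/- and 37.8% in Mr1+/+ when thinned). Unlike the other endothelial receptors it also had UMIs across oligodendrocyte-like cells: 104 UMIs in 94 of 948 Mr1-/- cells and 159 UMIs in 144 of 1350 Mr1+/+ cells. In CPM this was 24.9 in Mr1-/- and 25.7 in Mr1+/+ oligodendrocyte-like cells, a ratio of 0.969 (95% interval 0.750 to 1.249).

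The level of Kdr in oligodendrocyte-like cells was 6.46% of its endothelial level in Mr1-/- (95% interval 5.28 to 7.82) and 7.14% in Mr1+/+ (6.08 to 8.34). For Flt1 the same share was 0.369% in Mr1-/- and 0.0941% in Mr1+/+, for Ptprb, an endothelial phosphatase that acts on Tek, 0.372% in Mr1-/- and 0.136% in Mr1+/+, and for the tight junction gene Cldn5 0.159% in Mr1-/- and 0.0827% in Mr1+/+. Kdr thus kept no constant ratio to the other endothelial genes in oligodendrocyte-like cells, and its share there was higher by over 10 times in each library. Endothelial markers summed to 221 CPM in Mr1-/- oligodendrocyte-like cells with a Kdr UMI and 28.8 CPM in those without; in Mr1+/+ cells the sums were 26.9 CPM with and 23.7 CPM without one. Their part in the Kdr count was not tested. This class holds 3 clusters, in which Kdr had 15.9, 32.2 and 32.9 CPM in the Mr1-/- and 15.5, 28.0 and 47.2 CPM in the Mr1+/+ cells; the last value of each is the cluster led by Klk6. Microglia-like cells had 21 Kdr UMIs in Mr1-/- and 15 in Mr1+/+, and astrocyte-like cells 0 in Mr1-/- and 1 in Mr1+/+.

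Angpt1, the activating ligand of Tek, had no single source. Mural-like cells held 54.1 CPM in Mr1-/- (132 UMIs) and 46.6 CPM in Mr1+/+ (126 UMIs), neuron-like cells 56.8 CPM in Mr1-/- and 49.6 CPM in Mr1+/+, fibroblast-like cells 93.0 CPM in Mr1-/- and 117 CPM in Mr1+/+ (11 UMIs in Mr1-/- and 13 UMIs in Mr1+/+), and astrocyte-like cells 32.1 CPM in Mr1-/- and 39.1 CPM in Mr1+/+ (47 UMIs in Mr1-/- and 119 UMIs in Mr1+/+). Neuroblast-like cells had 16.7 CPM (95% interval 5.41 to 38.9) in Mr1-/- and 49.2 CPM (26.2 to 84.2) in Mr1+/+. In Mr1-/- the intervals of fibroblast-like, neuron-like and mural-like cells all overlap. In Mr1+/+ the fibroblast-like interval (62.5 to 201 CPM) lay above the mural-like one (38.8 to 55.4 CPM), and the neuron-like one overlapped each. The ratio was 1.16 (95% interval 0.904 to 1.5) in mural-like and 0.820 (0.572 to 1.16) in astrocyte-like cells. The mural ratio turned to 0.839 when cells were thinned to 1500 UMIs and to 0.792 at most 5% mitochondrial UMIs, so its direction moved with the setting; at that mitochondrial limit the class kept 130 Mr1-/- and 226 Mr1+/+ of its smooth muscle-like cells. A UMI of it was seen in 11.2% of Mr1-/- and 10.8% of Mr1+/+ mural-like cells (median depths 2196 UMIs in Mr1-/- and 2446 UMIs in Mr1+/+), against 1 cell of each library among microglia-like cells (0.134% in Mr1-/- and 0.156% in Mr1+/+).

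Angpt2, which can block or partly activate Tek depending on context, was mainly mural by share of UMIs, with 57.4% of them in mural-like cells of the Mr1-/- and 62.7% in those of the Mr1+/+ library. Its level there was 32.0 CPM (78 UMIs) in Mr1-/- and 46.6 CPM (126 UMIs) in Mr1+/+ cells, a ratio of 0.687 (95% interval 0.511 to 0.918). A UMI was seen in 7.31% of Mr1-/- and 10.4% of Mr1+/+ mural-like cells, and after thinning in 3.62% of Mr1-/- and 6.58% of Mr1+/+ cells. By level, the small fibroblast-like class ranked first, at 33.8 CPM (95% interval 9.21 to 86.6) in Mr1-/- and 72.3 CPM (31.2 to 142) in Mr1+/+. These intervals overlap those of mural-like cells, 25.3 to 39.9 CPM in Mr1-/- and 38.8 to 55.4 CPM in Mr1+/+. Oligodendrocyte precursor-like cells had 20.4 CPM (4.21 to 59.7) in Mr1-/- and 0 in Mr1+/+. Oligodendrocyte-like and astrocyte-like cells held 0 Angpt2 UMIs in each library. Endothelial-like cells had 13.9 CPM in Mr1-/- and 16.7 CPM in Mr1+/+ (48 UMIs in Mr1-/- and 56 UMIs in Mr1+/+), a ratio of 0.833 (0.555 to 1.247).

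Tek, the angiopoietin receptor, had 282 CPM (975 UMIs) in Mr1-/- and 294 CPM (988 UMIs) in Mr1+/+ endothelial-like cells, a ratio of 0.959 (95% interval 0.877 to 1.05). That class held 95.5% of its UMIs in Mr1-/- and 95.9% in Mr1+/+ cells. Tie1, the related receptor with no established ligand of its own, had 294 CPM (1018 UMIs) in Mr1-/- and 283 CPM (952 UMIs) in Mr1+/+ endothelial-like cells, a ratio of 1.04 (0.950 to 1.14). Tek was detected in 45.6% of Mr1-/- and 50% of Mr1+/+ endothelial-like cells, but thinned to one depth in 33.0% of Mr1-/- and 33.5% of Mr1+/+ cells. Tie1 was detected in 49.1% of Mr1-/- and 49.2% of Mr1+/+ cells, and thinned in 36.2% of Mr1-/- and 34.0% of Mr1+/+ cells. In oligodendrocyte-like cells Tek had 3 UMIs and Tie1 4 UMIs in Mr1-/-, and each had 0 in Mr1+/+.

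The 4 endothelial receptors were often seen in the same cell. All 4 had a UMI in 187 of 1435 Mr1-/- and 183 of 1302 Mr1+/+ endothelial-like cells (13% in Mr1-/- and 14.1% in Mr1+/+), 3 of them in 35.1% of Mr1-/- and 35.3% of Mr1+/+ cells, and none in 11 cells of each library. Thinned to 1500 UMIs, all 4 were seen in 5.07% of Mr1-/- and 5.04% of Mr1+/+ cells, so these shares follow depth and say little about cells that lack a receptor.

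Pdgfb, the ligand that holds pericytes on vessels, had 173 CPM (599 UMIs) in Mr1-/- and 161 CPM (541 UMIs) in Mr1+/+ endothelial-like cells, a ratio of 1.08 (95% interval 0.956 to 1.21). A UMI was seen in 32.4% of Mr1-/- and 31.9% of Mr1+/+ endothelial-like cells. Microglia-like cells were a further source, with 65.7 CPM (260 UMIs in 196 of 744 cells) in Mr1-/- and 53.9 CPM (204 UMIs in 142 of 639 cells) in Mr1+/+. They held 27.6% of the Pdgfb UMIs in Mr1-/- and 24.2% in Mr1+/+ cells. The ratio in microglia-like cells was 1.22 (1.01 to 1.47), and the thinned shares of cells with a UMI were 9.14% in Mr1-/- and 7.25% in Mr1+/+. Oligodendrocyte-like cells had 0 Pdgfb UMIs in Mr1-/- and 1 in Mr1+/+.

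The microglial level of Pdgfb was 37.9% of the endothelial level in Mr1-/- (95% interval 33.5 to 42.8) and 33.5% in Mr1+/+ (29.1 to 38.4). The same share was 0.278% in Mr1-/- and 0.0976% in Mr1+/+ for the endothelial cadherin Cdh5, and 3.66% in Mr1-/- and 3.02% in Mr1+/+ for the adhesion gene Pecam1. Endothelial markers summed to 54.3 CPM in Mr1-/- microglia-like cells with a Pdgfb UMI and 83.8 CPM in those without, and to 71.2 CPM with and 59.5 CPM without one in Mr1+/+ cells. Microglia-like cells with a Pdgfb UMI were deeper than those without, with median depths of 5987 UMIs against 3523.5 UMIs in Mr1-/- and 7548 UMIs against 3962 UMIs in Mr1+/+. The microglia-like clusters gave ratios of 1.251 (0.909 to 1.73) and 1.22 (0.963 to 1.54).

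Pdgfrb, the receptor of Pdgfb on mural cells, had 759 CPM (1852 UMIs) in Mr1-/- and 599 CPM (1621 UMIs) in Mr1+/+ mural-like cells, a ratio of 1.27 (95% interval 1.19 to 1.36). It was detected in 77.7% of Mr1-/- and 71.7% of Mr1+/+ cells, and after thinning in 58.5% of Mr1-/- and 55.4% of Mr1+/+ cells. Endothelial-like cells, which make its ligand, held 0 Pdgfrb UMIs in Mr1-/- and 1 in Mr1+/+, and 0.316% of Mr1-/- and 0.370% of Mr1+/+ oligodendrocyte-like cells had one.

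Outside mural-like cells Pdgfrb stood at 245 CPM in Mr1-/- and 172 CPM in Mr1+/+ fibroblast-like cells (29 UMIs in Mr1-/- and 19 UMIs in Mr1+/+) and at 62.8 CPM in Mr1-/- and 54.6 CPM in Mr1+/+ astrocyte-like cells (92 UMIs in Mr1-/- and 166 UMIs in Mr1+/+). The intervals of these 3 classes do not overlap. A Pdgfrb UMI was seen in 17.2% of Mr1-/- and 15.3% of Mr1+/+ astrocyte-like cells, and the ratio of the levels was 1.15 (95% interval 0.882 to 1.49). The astrocytic level was 4.62% of the pericyte level in Mr1-/- (3.73 to 5.67) and 4.76% in Mr1+/+ (4.06 to 5.54). For the pericyte markers Rgs5, Vtn, Higd1b and Atp13a5 it was between 0.00451% and 0.408% in Mr1-/- and between 0.0225% and 0.342% in Mr1+/+, and for Notch3 it was 1.94% in Mr1-/- and 1.89% in Mr1+/+. Mural markers summed to 110 CPM in Mr1-/- astrocyte-like cells with a Pdgfrb UMI and 38.9 CPM in those without, and to 53.6 CPM with and 59.6 CPM without one in Mr1+/+ cells. Their part in the Pdgfrb count was not tested.

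Members were next read against the spread of all genes. A gene with at least 50 UMIs over both libraries in a class was called when its Mr1-/- over Mr1+/+ log2 ratio was at least 0.32 or at most -0.32 (a ratio of 0.8), a rule of size and not a test. In endothelial-like cells 0 of 7 members were called, where 19.7% of 8880 genes were (11% in the higher and 8.7% in the lower direction), and the median log2 ratio of the members was -0.00 against 0.02 over all genes. In mural-like cells 2 of 5 were called, Pdgfrb higher and Angpt2 lower in Mr1-/-, where 20.8% of 8622 genes were (10.9% higher and 9.94% lower). Of the others, 0 of 3 members were called in astrocyte-like cells (background 22.6%), 0 of 1 in microglia-like cells (16.1%) and 0 of 2 in oligodendrocyte-like cells (15.6%). With 1 to 7 members a class, the counts can be read only beside these background shares. The middle 90% of all log2 ratios ran from -0.43 to 0.46 in endothelial-like and from -0.45 to 0.45 in mural-like cells.

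**Figure D2:**
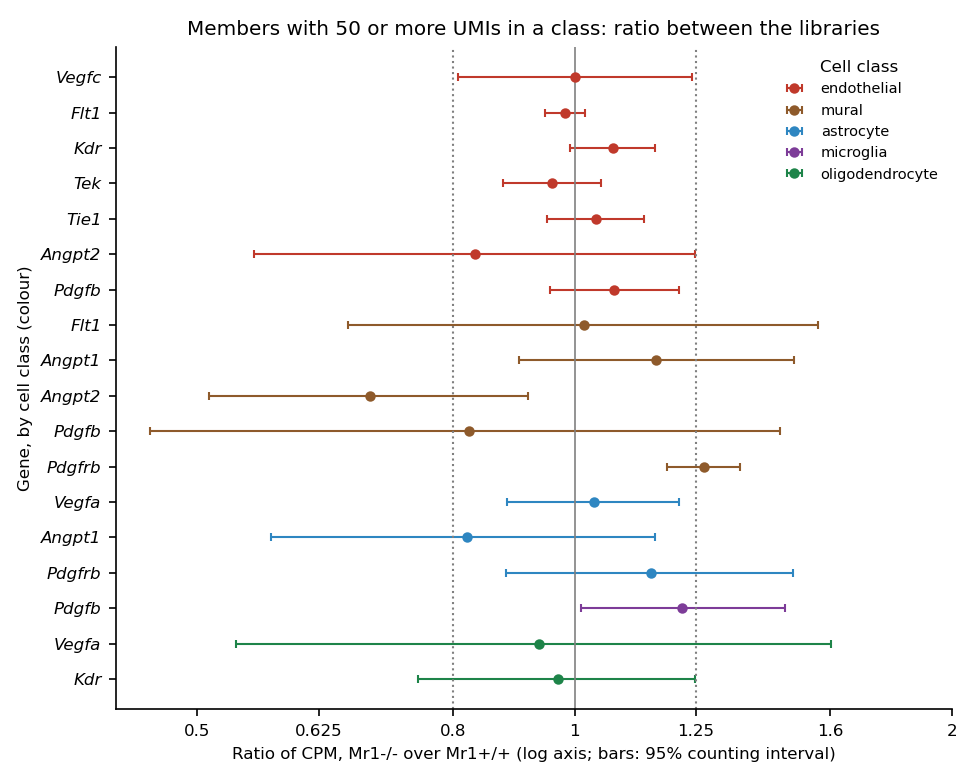
Ratio of CPM, Mr1-/- over Mr1+/+ (log axis), for each member with at least 50 UMIs in a class, coloured by class, with 95% counting intervals; dotted lines mark the limits of a call. The points past the dotted lines are Pdgfrb (1.27) and Angpt2 (0.687), both in mural-like cells.

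Within the mural class, Pdgfrb marked pericytes above smooth muscle. Pericyte-like cells (483 in Mr1-/-, 438 in Mr1+/+) had 1358 CPM in Mr1-/- and 1147 CPM in Mr1+/+, and smooth muscle-like cells (357 in Mr1-/- and 409 in Mr1+/+) had 276 CPM in Mr1-/- and 240 CPM in Mr1+/+. The pericyte level was 4.92 times the smooth muscle level in Mr1-/- (95% interval 4.37 to 5.54) and 4.78 times in Mr1+/+ (4.24 to 5.39). A remaining group of mural-like cells (131 in Mr1-/-, 118 in Mr1+/+), led by Ccl19, Gm2564, Ifitm1, Il34 and Rgs5 and not named, had 1248 CPM in Mr1-/- and 997 CPM in Mr1+/+.

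The ratio of Pdgfrb between the libraries was 1.18 (95% interval 1.09 to 1.29) in pericyte-like, 1.15 (0.994 to 1.33) in smooth muscle-like and 1.252 (1.05 to 1.49) in the remaining cells. Pericyte-like cells were 49.7% of the Mr1-/- and 45.4% of the Mr1+/+ mural-like class, and holding the 3 groups at one mix gave 1.19 for the whole class. Thinned to 1500 UMIs, the ratios were 1.13 for the class, 1.08 (0.967 to 1.21) for pericyte-like and 1.07 for smooth muscle-like cells. The call of the class was therefore lost at one mix and when thinned, although each of the 3 groups kept a ratio above 1 under each setting tried on them. Thinning also left out shallow cells, keeping 331 Mr1-/- and 342 Mr1+/+ pericyte-like cells, so it changed the cells as well as the depth. The thinned pericyte interval holds both 1 and 1.18, so thinning cannot decide whether the difference goes with depth.

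Of the named mural groups, Angpt1 was a transcript of smooth muscle-like cells. The remaining mural-like cells also held it, at 28.4 CPM in Mr1-/- and 99.7 CPM in Mr1+/+. Smooth muscle-like cells had 94.3 CPM (125 UMIs in 28.6% of cells) in Mr1-/- and 63.3 CPM (101 UMIs in 21.0% of cells) in Mr1+/+, while pericyte-like cells had 0 UMIs in Mr1-/- and 1 in Mr1+/+. The smooth muscle ratio was 1.49 (95% interval 1.14 to 1.956). Thinned to 1500 UMIs it was 1.02 (0.651 to 1.58) on 42 Mr1-/- and 45 Mr1+/+ UMIs, with a UMI in 11.4% of Mr1-/- and 11% of Mr1+/+ cells. That interval holds both 1 and 1.49, so thinning cannot decide whether the difference goes with depth. At most 5% mitochondrial UMIs the ratio was 1.35 (0.890 to 2.04), on 130 Mr1-/- and 226 Mr1+/+ cells. Of the members with enough UMIs, 1 of 3 was called in smooth muscle-like cells (Angpt1; background 23.4%) and 1 of 2 in pericyte-like cells (Flt1, with 30 UMIs in Mr1-/- and 20 in Mr1+/+; background 25.7%).

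Angpt2 had 48.3 CPM (64 UMIs) in Mr1-/- and 55.2 CPM (88 UMIs) in Mr1+/+ smooth muscle-like cells, and 3 UMIs in Mr1-/- and 2 UMIs in Mr1+/+ pericyte-like cells. In the remaining mural-like cells it had 44.7 CPM (11 UMIs in 8 cells) in Mr1-/- and 150 CPM (36 UMIs in 24 cells) in Mr1+/+, a ratio of 0.299 (95% interval 0.137 to 0.60). The smooth muscle ratio was 0.876 (0.624 to 1.22), so the ratio was further from 1 in this small group. There, thinning gave 0.220 on 4 Mr1-/- and 16 Mr1+/+ UMIs, and a limit of 5% mitochondrial UMIs gave 0.336. Angpt1 was likewise lower there, with 7 UMIs in Mr1-/- and 24 in Mr1+/+ (0.285, 0.104 to 0.683), and Pdgfb had 9 UMIs in Mr1-/- and 1 in Mr1+/+.

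**Figure D3:**
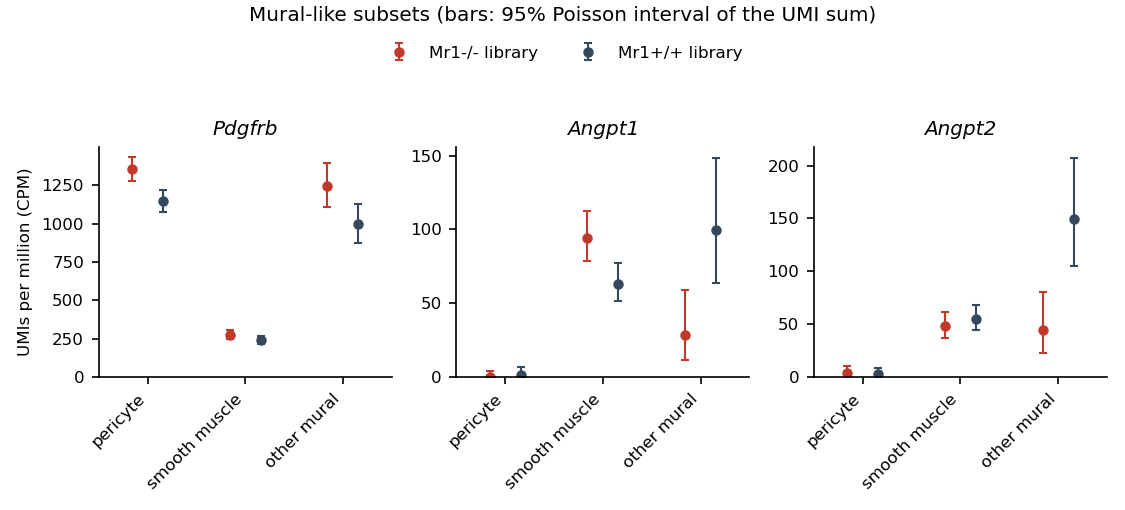
Level of Pdgfrb, Angpt1 and Angpt2 in CPM (linear axes that differ between panels) in pericyte-like, smooth muscle-like and other mural-like cells, with the Mr1-/- library in red at the left and 95% Poisson intervals. Pdgfrb is high in pericyte-like and other mural-like cells, Angpt1 is near 0 in pericyte-like cells, and Angpt2 in other mural-like cells is 44.7 CPM in Mr1-/- and 150 CPM in Mr1+/+.

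Along the endothelium, cells were split into arterial-like (194 Mr1-/- and 204 Mr1+/+ cells), capillary-like (554 in Mr1-/- and 402 in Mr1+/+) and venous-like (52 in Mr1-/- and 76 in Mr1+/+) groups from fixed markers, with the rest not named. Vegfc was arterial: 268 CPM (144 UMIs) in Mr1-/- and 235 CPM (140 UMIs) in Mr1+/+ arterial-like cells, in 42.8% of those Mr1-/- and 43.1% of those Mr1+/+ cells, against 7 UMIs in Mr1-/- and 0 UMIs in Mr1+/+ capillary-like cells. Arterial-like cells held 75.0% of all Vegfc UMIs in Mr1-/- and 72.9% in Mr1+/+ cells. The arterial level was 11.3 times the venous level in Mr1-/- (95% interval 4.31 to 42.0) and 4.78 times in Mr1+/+ (2.65 to 9.46).

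Kdr ran the other way, with 160 CPM in Mr1-/- and 147 CPM in Mr1+/+ arterial-like cells against 475 CPM in Mr1-/- and 442 CPM in Mr1+/+ capillary-like cells. The capillary level was 2.97 times the arterial level in Mr1-/- (95% interval 2.36 to 3.77) and 3.0 times in Mr1+/+ (2.38 to 3.82). Venous-like cells stood between, at 297 CPM in Mr1-/- and 270 CPM in Mr1+/+. Flt1 had 1806 CPM in Mr1-/- and 1727 CPM in Mr1+/+ arterial-like cells and 1539 CPM in Mr1-/- and 1477 CPM in Mr1+/+ capillary-like cells. Between arterial-like and capillary-like cells Flt1 thus did not follow Kdr. An endothelial-like group without a subset name (324 Mr1-/- and 343 Mr1+/+ cells) was high in both genes. Flt1 stood there at 1972 CPM in Mr1-/- and 2056 CPM in Mr1+/+, and Kdr at 510 CPM in Mr1-/- and 463 CPM in Mr1+/+. The other cells without a subset name (311 in Mr1-/- and 277 in Mr1+/+) had 1727 and 1753 CPM of Flt1 and 301 and 326 CPM of Kdr.

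Tie1 was higher in venous-like than in capillary-like cells, 1.77 times in Mr1-/- (95% interval 1.34 to 2.30) and 1.59 times in Mr1+/+ (1.23 to 2.04). Tek was higher in arterial-like than in capillary-like cells, at 317 against 231 CPM in Mr1-/- and 350 against 224 CPM in Mr1+/+. Pdgfb had 197 CPM in Mr1-/- and 206 CPM in Mr1+/+ arterial-like, 155 CPM in Mr1-/- and 139 CPM in Mr1+/+ capillary-like, and 113 CPM in Mr1-/- and 65.5 CPM in Mr1+/+ venous-like cells (19 UMIs in Mr1-/- and 16 UMIs in Mr1+/+ in the last).

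Between the libraries, 0 of 6 members were called in arterial-like cells (background 28.2%), 1 of 6 in capillary-like cells (Angpt2, lower in Mr1-/-; background 26.1%) and 2 of 4 in venous-like cells (Flt1 and Tek, both lower in Mr1-/-; background 35.8%). Capillary Angpt2 rested on 26 UMIs in Mr1-/-, 9 of them in 1 cell, and 28 in Mr1+/+. Venous Tek rested on 36 UMIs in Mr1-/- and 71 in Mr1+/+. Venous Flt1 had 981 CPM in Mr1-/- and 1293 CPM in Mr1+/+, a ratio of 0.758 (95% interval 0.624 to 0.918). The borders of these groups moved with the clustering. At a coarser setting venous Flt1 had 1266 CPM in Mr1-/- and 1347 CPM in Mr1+/+, a ratio of 0.94, venous Tek had 253 CPM in Mr1-/- and 273 CPM in Mr1+/+, and arterial Vegfc had 135 CPM in each library, while Kdr stayed higher in capillary-like cells (539 CPM in Mr1-/-, 502 CPM in Mr1+/+) than in arterial-like cells (229 CPM in Mr1-/- and 220 CPM in Mr1+/+). Capillary Angpt2 had a ratio of 0.731 (0.433 to 1.22) at that setting.

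**Figure D4:**
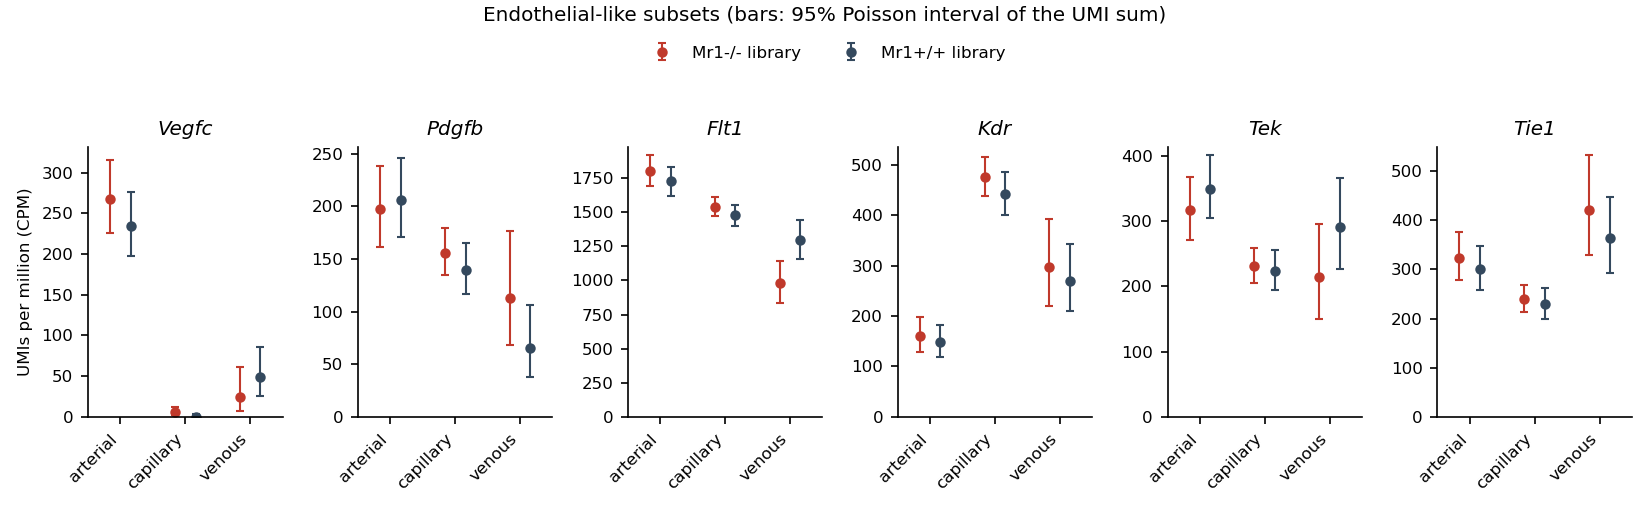
Level of 6 genes in CPM (linear axes that differ between panels) in arterial-like, capillary-like and venous-like endothelial cells, with the Mr1-/- library in red at the left and 95% Poisson intervals. Vegfc is high in arterial-like cells (268 CPM in Mr1-/- and 235 CPM in Mr1+/+) and near 0 in capillary-like cells, while Kdr is lowest in arterial-like cells (160 CPM in Mr1-/- and 147 CPM in Mr1+/+).

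Summed over all kept cells, the balance of ligand and receptor differed between the libraries. Vegfa had 18.9 CPM in Mr1-/- and 28.9 CPM in Mr1+/+, a ratio of 0.652 (95% interval 0.568 to 0.747), while Flt1 had 357 CPM in Mr1-/- and 285 CPM in Mr1+/+ (1.253) and Kdr 95.5 CPM in Mr1-/- and 71.8 CPM in Mr1+/+ (1.33). With the cell classes held at one mix, the ratios became 1.01 for Vegfa, 0.983 for Flt1 and 1.06 for Kdr. The library-wide difference in these genes thus went with the larger endothelial-like and smaller astrocyte-like share of the Mr1-/- library.

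The quotient of Vegfa to Kdr UMIs was 0.197 in Mr1-/- and 0.403 in Mr1+/+, or 0.490 of it (95% interval 0.422 to 0.570), and that of Vegfa to Flt1 was 0.0529 in Mr1-/- and 0.102 in Mr1+/+, or 0.520 (0.453 to 0.597). Angpt1 to Tek gave 0.234 in Mr1-/- and 0.326 in Mr1+/+ (0.718, 0.595 to 0.865), and Angpt2 to Tek 0.133 in Mr1-/- and 0.195 in Mr1+/+ (0.683, 0.540 to 0.863). Pdgfb to Pdgfrb differed less, at 0.475 in Mr1-/- and 0.462 in Mr1+/+ (1.03, 0.918 to 1.15), as did Flt1 to Kdr, at 3.73 in Mr1-/- and 3.96 in Mr1+/+ (0.943, 0.872 to 1.02). The quotients sum all kept cells, whose class shares differ between the libraries, and they were not computed at one mix of classes. At one mix the single genes had ratios of 1.01 (Vegfa), 0.983 (Flt1), 1.06 (Kdr), 0.989 (Angpt1), 0.710 (Angpt2), 0.963 (Tek), 1.10 (Pdgfb) and 1.254 (Pdgfrb). Which pairs differed more over all kept cells therefore need not hold at one mix. The 2 genotypes cannot be told apart from the 2 preparations.

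Over all kept cells Pdgfrb had 114 CPM in Mr1-/- and 84.9 CPM in Mr1+/+, a ratio of 1.35 (95% interval 1.26 to 1.43), and 1.254 at one mix of classes. Angpt2 had 7.85 CPM in Mr1-/- and 9.37 CPM in Mr1+/+, a ratio of 0.838 (0.669 to 1.05), which does not pass the limit, and 0.710 at one mix. This mix fixed the classes only, so the pericyte-like and smooth muscle-like shares within the mural-like class still differed. The remaining members moved towards 1: Vegfc to 0.995, Angpt1 to 0.989, Tek to 0.963, Tie1 to 1.08 and Pdgfb to 1.10.

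**Figure D5:**
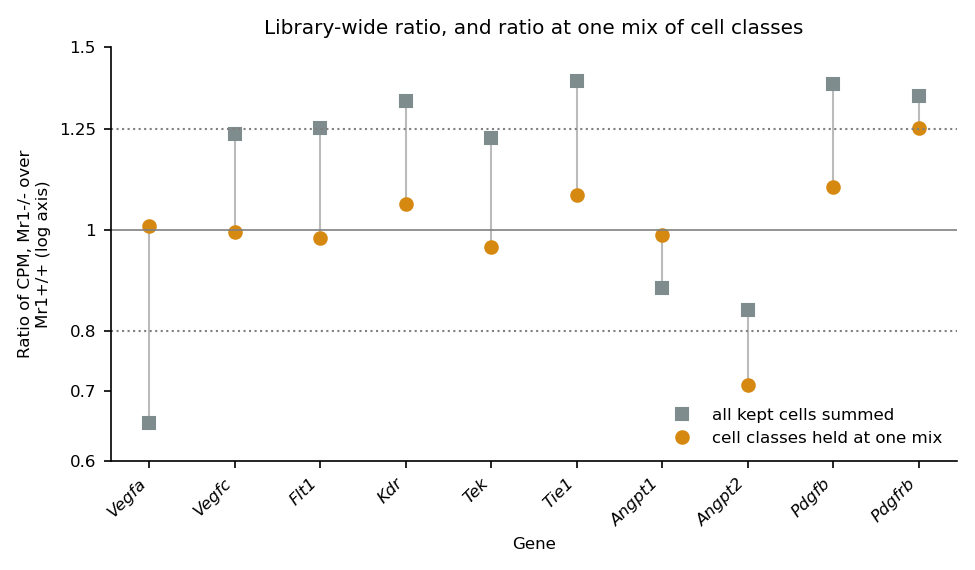
Ratio of CPM, Mr1-/- over Mr1+/+ (log axis), for each member over all kept cells (grey squares) and with the cell classes held at one mix (orange circles); dotted lines mark the limits of a call. Vegfa moves to 1.01 from its library-wide 0.652, and at one mix of classes Pdgfrb (1.254) and Angpt2 (0.710) lie past the dotted lines. The groups within the mural-like class are not held at one mix here. Over all kept cells Angpt2 is at 0.838, inside them.

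Other ligands and receptors of the families, 12 listed, gave 7 with enough UMIs in endothelial-like cells, of which 0 were higher (background 11%) and 2 lower (8.7%) in Mr1-/- (median log2 ratio 0.02, as over all genes). The 2 were Pdgfa, a ligand of Pdgfra, with 37.9 CPM in Mr1-/- and 56.0 CPM in Mr1+/+ (0.677, 95% interval 0.538 to 0.851), and Pdgfd, another ligand of Pdgfrb, with 67.7 CPM in Mr1-/- and 84.8 CPM in Mr1+/+ (0.798, 0.668 to 0.952). Ptprb, which removes phosphate from Tek, had 967 CPM in Mr1-/- and 954 CPM in Mr1+/+ (1.01), and the coreceptor Nrp1 110 CPM in Mr1-/- and 109 CPM in Mr1+/+ (1.01). In mural-like cells 0 of 6 were higher (background 10.9%) and 2 lower (9.94%), Pdgfd at 12.3 CPM in Mr1-/- and 20.3 CPM in Mr1+/+ (0.605, 0.374 to 0.961) and Nrp1 at 28.3 CPM in Mr1-/- and 35.8 CPM in Mr1+/+ (0.789, 0.571 to 1.09). Pdgfa and the placental growth factor gene Pgf, the 2 with the most UMIs there, had ratios of 0.94 (Pdgfa) and 1.07 (Pgf). In astrocyte-like cells 2 of 5 were called (background 22.6%), Pdgfc (1.30, 0.775 to 2.16) and Pdgfd (0.721, 0.438 to 1.15), with intervals that hold 1. In microglia-like cells 0 of 4 were called (background 16.1%), and in oligodendrocyte-like cells 0 of 4 (background 15.6%).

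Hypoxia response genes were listed because Vegfa is one of the targets of hypoxia-inducible factors. Of 23 listed, 17 had enough UMIs in endothelial-like cells, with 1 higher (background 11%) and 4 lower (8.7%) in Mr1-/- and a median log2 ratio of -0.14 against 0.02 over all genes. Ddit4, an inhibitor of mTOR signalling that several stresses induce, had 337 CPM in Mr1-/- and 685 CPM in Mr1+/+ (0.493, 95% interval 0.459 to 0.529), and Slc2a1, the glucose transporter of the blood-brain barrier, had 1411 CPM in Mr1-/- and 2124 CPM in Mr1+/+ (0.665, 0.641 to 0.689). P4ha1, a collagen prolyl hydroxylase, had a ratio of 0.631, Bnip3, a mitophagy receptor, 0.773, and Vhl, which targets hypoxia-inducible factors for degradation, 1.27. The interval of Vhl (0.901 to 1.80) holds 1.

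In mural-like cells 0 of 16 hypoxia response genes were higher (background 10.9%) and 4 lower (9.94%) (Ndrg1 0.643, Ankrd37 0.708, P4ha1 0.777 and Vhl 0.795; median log2 ratio -0.18 against 0.01). The interval of Vhl there (0.537 to 1.17) holds 1. In astrocyte-like cells, where Vegfa is made, 4 of 16 were called against a background of 22.6% (Egln1 1.5, Vhl 0.734, Kdm3a 0.777 and Slc2a1 0.781; median -0.08 against -0.02). The intervals of Egln1 (0.815 to 2.73, on 21 Mr1-/- and 29 Mr1+/+ UMIs) and Kdm3a (0.554 to 1.08) hold 1. Microglia-like cells had 6 of 16 called (background 16.1%), 2 higher and 4 lower in Mr1-/-. The higher ones were the hexokinase Hk2, with 339 CPM in Mr1-/- and 238 CPM in Mr1+/+ (1.42, 95% interval 1.31 to 1.55), and the glycolysis regulator Pfkfb3 (1.63, 1.30 to 2.05), and the lower ones were Ddit4 (0.370), Ankrd37 (0.541), Egln1 (0.747) and P4ha1 (0.786). The interval of microglial Egln1 (0.455 to 1.21) holds 1. Oligodendrocyte-like cells had 6 of 16 called (background 15.6%), all lower in Mr1-/-: Ankrd37 (0.595), Ddit4 (0.618), P4ha1 (0.709), Pfkfb3 (0.774), Ldha (0.780) and Epas1 (0.794). The intervals of Pfkfb3 (0.499 to 1.18), Ldha (0.598 to 1.01) and Epas1 (0.492 to 1.26) hold 1. Notch, apelin and other endothelial response genes gave 0 of 13 called in endothelial-like cells (background 19.7%). Among them, Eng, a coreceptor of the TGF-beta family, had 741 CPM in Mr1-/- and 832 CPM in Mr1+/+ (0.891). Nos3, endothelial nitric oxide synthase, had 198 CPM in Mr1-/- and 221 CPM in Mr1+/+ (0.898). Of 9 such genes in mural-like cells 0 were called (background 20.8%). Of 7 in astrocyte-like cells 1 was higher and 1 lower in Mr1-/- (background 22.6% called). Microglia-like cells had 1 of 6 lower (background 16.1% called) and oligodendrocyte-like cells 1 of 6 higher (15.6%).

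Across 14 points (7 classes in 2 libraries), the genes whose log2(CPM + 10) ran most like each member were found among 11481 genes, as a description with no test. The points of 1 library share their depth, and each point is a sum over 1 class. Vegfa ran with Chst2, Agt and Ccdc74a (Pearson r 0.984, 0.980 and 0.979), Vegfc with Sox7, Rsad2 and Slc26a10 (0.998, 0.997 and 0.994) and Flt1 with Bvht, Grrp1 and Cldn5 (0.992, 0.991 and 0.991). Kdr was closest to Thsd1, Clic5 and Cavin2 (0.993, 0.980 and 0.978), Tek to Abcb1a, Cyyr1 and Ushbp1, and Tie1 to Srarp, She and Slc16a4. Angpt2 was closest to 2200002D01Rik, Col18a1 and Hic1 (0.996, 0.99 and 0.99), and Pdgfrb to Itga7, Rasl11a and Sod3 (0.993, 0.991 and 0.99). Angpt1 (Sept5, Atp1b1 and Fbxw5) and Pdgfb (Irf1, Layn and Lmo2), each with several source classes, reached 0.980 and 0.976 with their nearest gene.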

How the data were processed

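Each library's gene by cell matrix was deposited by the authors as whole UMI counts, not normalized. Per the submitters' processing notes, reads were processed with Cell Ranger 5.1.0 and STAR on mm10, while the matrix file headers name Cell Ranger 3.1.0. The lowest total of a deposited barcode was 501 UMIs, and median depths were 2935 UMIs in Mr1-/- and 3160 UMIs in Mr1+/+.

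Cells with at least 300 genes and at most 10% mitochondrial UMIs were kept (5278 in Mr1-/-, 6327 in Mr1+/+), and Scrublet calls, 3.24% and 5.29%, were removed. Counts were scaled to 10000 per cell, logged and clustered on 2000 variable genes, 30 components, 15 neighbours and Leiden resolution 1.0 with scanpy 1.11.5 and leidenalg 0.10.2 under Python 3.11.15 (SciPy 1.17.1). The 10 members and 12 related genes were left out of the variable genes. A class was named "X-like" from at least 3 fixed markers; 4 clusters stayed unnamed. Endothelial-like cells were clustered again at resolution 0.8, with 0.6 tried as an alternative. Mural-like cells were not clustered again: their clusters were named from pericyte and smooth muscle markers.

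UMIs were summed per class and library, and CPM is the gene's UMIs over all UMIs of those cells, times 1000000. Intervals at 95% were exact Poisson for a level, exact conditional binomial for a ratio, a normal approximation on the log scale for a quotient and exact Clopper-Pearson for a share; a count of 0 was bounded at 3 counts. Shares were also computed after each cell was thinned to 1500 UMIs, which left out 525 Mr1-/- and 844 Mr1+/+ cells. The scripts were tested on simulated data. Named genes are all 10 members, of the other lists up to 4 past the call limits each way and the 2 with the most UMIs in a class, and the 3 genes most like each member; some of the genes allowed by this rule are left unnamed. The members and lists were chosen with earlier results of these data known. The subset mixes, the shallow astrocyte-like cluster, the coarser endothelial subsets and the mural subset settings were chosen as alternatives after seeing the data.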

Additional observations from a re-analysis of the deposited data

Results flagged for a closer look

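A small cluster outside the named classes carried endothelial receptor transcripts and entered no comparison by class, though its UMIs are part of the library-wide sums. It held 51 Mr1-/- and 30 Mr1+/+ cells, was led by Plvap, a gene of fenestrated endothelium, with Igfbp3 and Penk, and kept no name under the marker rule. Kdr stood there at 1130.5 CPM (155 UMIs in 40 of 51 cells) in Mr1-/- and 1054.5 CPM (105 UMIs in 25 of 30 cells) in Mr1+/+, against 386 CPM in Mr1-/- and 360 CPM in Mr1+/+ endothelial-like cells. Tie1 stood at 649.1 CPM (89 UMIs) in Mr1-/- and 411.75 CPM (41 UMIs) in Mr1+/+, a ratio of 1.58 (95% counting interval 1.08 to 2.34). There Flt1 had 1203 CPM in Mr1-/- and 1135 CPM in Mr1+/+, Tek 175 CPM in Mr1-/- and 121 CPM in Mr1+/+, and Pdgfb 182 CPM in Mr1-/- and 181 CPM in Mr1+/+. These values were set apart because they are a signal in cells that no comparison by class used.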

How the results depend on the processing

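No paired analysis was possible because each genotype has 1 library. Of 18 ratios within classes under 177 alternatives, 5 values moved outside their counting interval and 0 called values changed direction. Pdgfrb in mural-like cells, 1.27 as reported, was 1.13 thinned to 1500 UMIs and 1.36 at most 5% mitochondrial UMIs; Angpt1 there, 1.16, was 0.839 when thinned and 0.792 at most 5%. Vegfa in oligodendrocyte-like cells, 0.936, was 0.392 when thinned. The library-wide ratio of Angpt1, 0.881, was 0.695 at most 5% mitochondrial UMIs, that of Pdgfrb, 1.35, was 1.18 when thinned, and the Angpt1 to Tek quotient, 0.718, was 0.557 at most 5%. The difference in the share of mural-like cells with an Angpt2 UMI, -2.97 points, was -0.623 points thinned to 1000 UMIs.

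Members called moved as follows, with the share of all genes called in parentheses. With no count minimum, so that any gene with a UMI in each library was tested, there were 1 of 8 in endothelial-like (33.1%), 5 of 9 in mural-like (35%), 2 of 6 in astrocyte-like (38.2%), 5 of 8 in microglia-like (30.9%) and 2 of 5 in oligodendrocyte-like cells (32.7%). With each cell weighing the same there were 4 of 5 in mural-like (24.9%), 2 of 3 in astrocyte-like (25.5%) and 1 of 1 in microglia-like cells (21.8%). Mural-like cells had 1 of 3 when thinned (23.2%) and 0 of 5 at 1.5-fold (4.93%), astrocyte-like cells 1 of 3 at most 5% mitochondrial UMIs (23.9%), and microglia-like cells 1 of 3 with doublet calls kept (16.0%). The cause was not tested. Ratios of Flt1, Kdr, Tek and Tie1 in endothelial-like cells ran from 0.945 to 1.08 over the alternatives, Vegfa in astrocyte-like cells from 1.01 to 1.13, and Angpt2 in mural-like cells from 0.576 to 0.788. Depth limits the angiopoietins, Vegfc and the venous-like group, with few UMIs each, and 1 library per genotype limits every comparison.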
